A study of Mus musculus with 12 samples.

Results

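Sorted spermatocytes at the MII stage were compared with sorted round spermatids (RS) of wildtype (WT) mice, across all genes of the count table. The members were the 6 WT libraries, 3 of MII cells and 3 of RS, of 12 libraries in all, chosen by genotype and stage in the labels. The other 6 libraries came from mice that lack PAN2, a deadenylase subunit, in germ cells (KO; genotype Pan2flox/-;Stra8-Cre, in which Cre is driven by the Stra8 promoter), 3 at each stage. The WT mice carried no allele or agent that the labels name, and the labels name no strain, age or sorting gate. RNA was primed on poly(A) tails and amplified by the Smart-seq2 protocol. The labels do not tie the 3 libraries of a group to different animals. The p-values therefore describe variation among these libraries, part of which may be technical.

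Secondary spermatocytes arise from the first meiotic division, and the second division turns them into haploid round spermatids. Spermatids then build the acrosome and the flagellum and replace histones with protamines, and many of the mRNAs for this are made early, stored without translation and used once transcription has stopped. Meiotic sex chromosome inactivation silences the X and Y in pachytene spermatocytes, and many X genes stay repressed afterwards while a group of spermatid genes on the X and Y is switched on. Regulators of the spermatid programme include CREM, which binds the cAMP response element, and RFX factors, which bind the X-box.

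The promoters of 5 genes described below are printed to show those letters beside genes that went up and genes that went down. They run from 250 bases before to 50 bases after the annotated start, 5′ to 3′ on the gene's strand, and come from RefSeq (GRCm38.p6, the same assembly as mm10). Capitals mark the X-box letters GTTGCC, which read GGCAAC where they lie on the other strand, the full cAMP response element TGACGTCA, and in Rpl14 the pyrimidine run that covers the start. Tcp11 (chr17:28080590-28080889, minus strand), Kif17 (chr4:138262001-138262300, plus strand) and Znrf4 (chr17:56512434-56512733, minus strand) rose in RS. Ndc80 (chr17:71526808-71527107, minus strand) and Rpl14 (chr9:120571267-120571566, plus strand) fell.
Tcp11: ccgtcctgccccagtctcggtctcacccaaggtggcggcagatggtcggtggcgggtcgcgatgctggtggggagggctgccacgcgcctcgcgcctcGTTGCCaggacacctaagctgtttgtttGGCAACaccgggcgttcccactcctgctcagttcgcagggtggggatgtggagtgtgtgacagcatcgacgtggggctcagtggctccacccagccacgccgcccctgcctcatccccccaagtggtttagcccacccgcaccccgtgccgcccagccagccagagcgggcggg
Kif17: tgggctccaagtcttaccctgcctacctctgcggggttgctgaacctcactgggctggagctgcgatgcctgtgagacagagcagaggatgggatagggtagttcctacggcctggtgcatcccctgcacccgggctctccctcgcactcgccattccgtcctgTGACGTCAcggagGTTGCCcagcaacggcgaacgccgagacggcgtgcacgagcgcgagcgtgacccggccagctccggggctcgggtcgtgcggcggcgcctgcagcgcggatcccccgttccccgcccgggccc
Znrf4: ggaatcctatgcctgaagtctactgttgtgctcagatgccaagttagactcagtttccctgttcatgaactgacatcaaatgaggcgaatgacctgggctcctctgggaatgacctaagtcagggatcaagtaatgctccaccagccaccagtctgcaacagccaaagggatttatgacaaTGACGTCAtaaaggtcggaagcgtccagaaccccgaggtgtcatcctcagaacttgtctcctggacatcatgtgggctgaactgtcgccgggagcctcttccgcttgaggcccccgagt
Ndc80: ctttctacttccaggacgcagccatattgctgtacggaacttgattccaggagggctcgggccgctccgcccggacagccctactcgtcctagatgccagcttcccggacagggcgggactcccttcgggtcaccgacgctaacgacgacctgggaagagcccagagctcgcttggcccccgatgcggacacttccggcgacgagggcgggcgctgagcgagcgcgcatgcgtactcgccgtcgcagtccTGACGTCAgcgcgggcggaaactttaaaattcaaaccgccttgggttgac
Rpl14: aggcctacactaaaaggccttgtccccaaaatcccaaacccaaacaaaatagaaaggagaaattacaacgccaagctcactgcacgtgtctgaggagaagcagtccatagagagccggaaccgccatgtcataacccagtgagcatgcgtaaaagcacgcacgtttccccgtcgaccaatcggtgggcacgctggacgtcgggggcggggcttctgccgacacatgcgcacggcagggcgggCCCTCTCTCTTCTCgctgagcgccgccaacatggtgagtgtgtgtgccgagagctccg
The full element is thus present in the promoter of a gene that rose 1.53 on the log2 scale (Znrf4) and of a gene that fell by 1.67 (Ndc80).

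The WT MII libraries held 13781370, 21427227 and 34436668 counts and the WT RS libraries 34057646, 32068535 and 26548977. Levels are given as CPM, that is counts relative to scaled library sizes, which compare a gene between libraries but not genes with each other. Pearson correlations between libraries (log2 CPM) were 0.965 to 0.968 within MII and 0.973 to 0.983 within RS. Between the stages they were 0.947 to 0.962, the highest for WT MII replicate 2 with WT RS replicate 3. Genes are not independent of each other. On the first principal component of the 6 libraries (47.1% of variance) the MII libraries lay between -65.6 and -42.5 and the RS libraries between 52.0 and 59.3. WT MII replicate 3 stood apart, with 0.0329% of its counts in CT010467.1 (0.775% to 1.47% in the other 5 libraries) and 0.210% in mitochondrial genes (0.227% to 0.374% in the others).

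Markers of the labelled cells were present at both stages. The 21 round spermatid markers summed to 6282, 5199 and 7301 CPM in MII and to 6531, 7709 and 5825 CPM in RS, and the 2 sets of libraries overlapped. For elongating and condensing spermatids the 20 markers added up to 9222, 8025 and 11331 CPM in MII and 10530, 14369 and 9437 CPM in RS. The 19 tested markers of diplotene and dividing spermatocytes summed to 3651, 4307 and 4370 CPM in MII and 3618, 3458 and 4154 CPM in RS. By these sums the labelled stages were not set apart, although single markers were. Of round spermatid markers 3 (14.3%) were higher and 0 lower, and of elongating and condensing spermatid markers 6 (30%) and 0. Of diplotene and dividing spermatocyte markers 5 (26.3%) were lower and 0 higher, where 8.68% of all genes were lower and 7.74% higher. With 1 WT library left out these counts were 2 to 4, 1 to 9 and 4 to 7, in that order. Of 22 leptotene to pachytene spermatocyte markers, which are earlier, 6 (27.3%) were also lower and 0 higher. The lower count was 6 or 7 with 1 WT library left out. Their sum was 4457, 4489 and 4471 CPM in MII and 4455, 4109 and 4881 CPM in RS, which overlapped. Ldhc, the lactate dehydrogenase of male germ cells, had between 7556 and 8109 CPM in the 6 libraries and was not called (log2 fold change -0.04, SE 0.10).

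**Figure D1:**
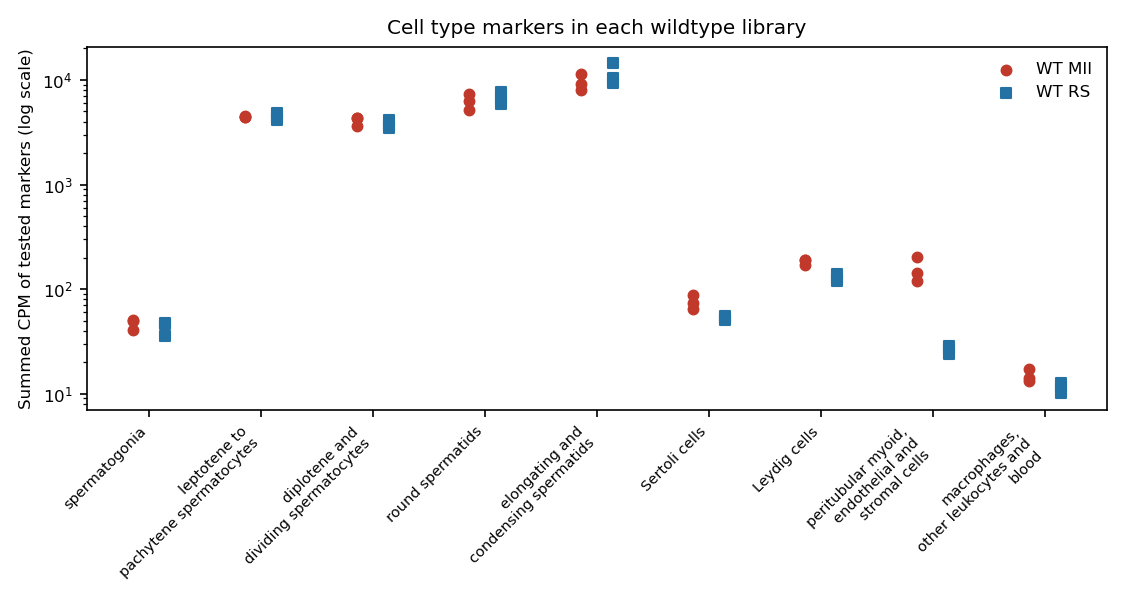
Summed CPM of the tested markers of 9 cell types (log scale) in each WT library, with circles for MII and squares for RS. The germ cell sums of the stages overlap, whereas the sums for peritubular myoid, endothelial and stromal cells are 118 to 204 CPM in MII and 23.7 to 28.5 CPM in RS.

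Transcripts of somatic testis cells were higher in the MII libraries. Insl3, a hormone of Leydig cells, was at 10.4, 19.4 and 9.70 CPM in MII and had 0 counts in every RS library. That is at least 136-fold lower in RS, against a floor of 3 counts per library. Hsd3b1, a steroid dehydrogenase of Leydig cells, was at 4.61, 7.57 and 5.97 CPM and also had 0 counts in RS, at least 62.3-fold lower. Of 16 tested Leydig markers, 10 (62.5%) were lower and 2 (12.5%) higher (Por and Scarb1) in RS. Of 16 markers of myoid, endothelial and stromal cells 12 (75%) were lower. Among all genes tested 8.68% were lower and 7.74% higher. The count of lower Leydig markers was 6 without WT RS replicate 1 or WT RS replicate 2. Of 23 Sertoli markers 4 (17.4%) were lower (Aard, Ctsl, Kitl and Vim) and 1 (4.35%), Tjp1, was higher. Amh had 0 counts in all 6 libraries. The lower Sertoli count was 2 without WT MII replicate 3 or any 1 WT RS library and 7 in the fit of the 6 WT libraries. The higher Sertoli count was 0 without any 1 WT library other than WT RS replicate 3, and with only the 6 WT libraries. It was also 0 without KO MII replicate 3 or any 1 KO RS library. Ctsl lost its call without any 1 of the 6 WT libraries, and Aard without WT MII replicate 3 or any 1 WT RS library. The Sertoli sum was 64.1, 74.1 and 87.5 CPM in MII against 55.8, 51.1 and 52.0 CPM in RS, the Leydig sum 168, 188 and 188 CPM against 120, 140 and 126 CPM, and the myoid and stromal sum 204, 118 and 141 CPM against 26.4, 28.5 and 23.7 CPM. Most of the Leydig sum came from Fdx1, the ferredoxin of steroid synthesis, at 94.1, 90.6 and 129.6 CPM in MII and 60.7, 65.6 and 70.1 CPM in RS, and from Scarb1, a lipoprotein receptor, which rose from a mean of 25.3 to 47.7 CPM, while Insl3 and Hsd3b1 made up a small part of it. An exact two-sided permutation test of 3 against 3 libraries gave p = 0.1 for each of these 3 sums, the smallest it can give. No macrophage or blood marker of 12 was called. Their sum was 13.3, 17.1 and 14.2 CPM in MII and 11.6, 12.7 and 10.1 CPM in RS (p = 0.1, same permutation test). The part of these cells in the changes below was not tested. In such bulk samples, fewer cells of a type and less RNA per cell cannot be told apart.

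Across all genes, 3497 of 21291 tested changed between the stages, which is 16.4%, at an adjusted p under 0.05 (edgeR quasi-likelihood test). Of these 1648 were higher in RS (7.74% of all tested) and 1849 lower (8.68%). The groups did not overlap for 3338 of the 3497, and for 30.5% of all genes tested. Changes of abundant genes were moderate: at a mean of at least 20 CPM, 929 of 6343 genes were higher and 726 lower, but 103 and 69 of them by at least 2-fold, and log2 fold changes ran from -0.68 (5th percentile) to 0.74 (95th). Below a mean of 1 CPM, 328 of 5453 genes were lower and 49 higher. The number of called genes depended on single libraries. It was 1776 without WT RS replicate 1, 2010 without WT MII replicate 3 and 2207 without WT RS replicate 2, and 2108 when only the 6 WT libraries were fitted. The genes called with any 1 of the 6 WT libraries left out numbered 1398, of which 657 were higher and 741 lower.

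**Figure D2:**
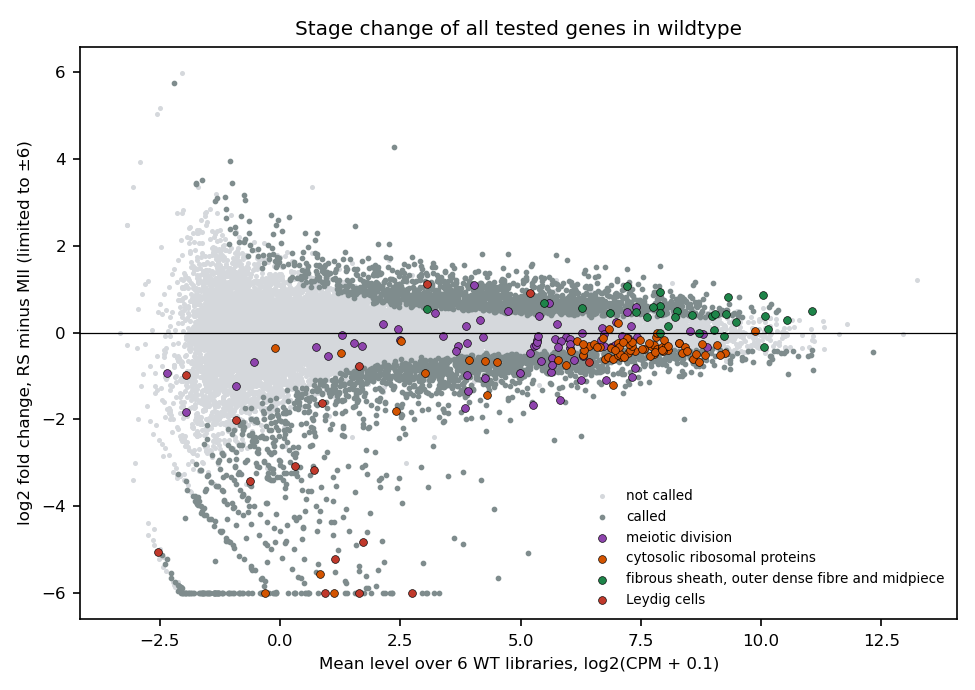
Log2 fold change (RS minus MII, values beyond 6 in size drawn at 6) of each tested gene against its mean level over the 6 WT libraries, with called genes in dark grey. Members of 4 lists are coloured. Meiotic division and ribosomal protein genes lie mostly below 0, and fibrous sheath, outer dense fibre and midpiece genes mostly above it. Leydig markers lie mostly at low levels far below 0, while Por and Scarb1 lie above it.

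Of 73 tested genes of meiotic division, 16 were lower (21.9%, against 8.68% of all genes) and 3 higher (Pkmyt1, Fzr1 and Anapc2), and the others were not called, with a median log2 fold change of -0.24 against -0.03 for all genes. With 1 WT library left out the lower count was 12 to 17, and the higher count was 1 without WT MII replicate 3, WT RS replicate 1 or WT RS replicate 3. Cdk1, the kinase that drives division, was at 74.7, 88.5 and 89.3 CPM in MII and 26.09, 20.996 and 39.14 CPM in RS. Every RS library lay below every MII library, and the log2 fold change was -1.55 (SE 0.20, adjusted p = 5.6e-05, edgeR). Ndc80, an outer kinetochore protein that holds microtubules, was at 53.8, 59.0 and 60.8 CPM in MII and 16.7, 16.2 and 21.9 CPM in RS (-1.67, SE 0.16, adjusted p = 4.4e-06). Sgo2a, the shugoshin that protects centromeric cohesin, was at 20.05, 24.34 and 19.17 CPM and then 8.35, 7.54 and 9.32 CPM (-1.33, SE 0.18, adjusted p = 0.0001). All 3 had non-overlapping groups and were called without any 1 library. Fbxo43, which inhibits the anaphase-promoting complex in meiosis, fell by 1.73 on the log2 scale, Spc25 by 1.10, Cdca8 by 1.09, Aurkb by 1.04 and Pttg1, the securin, by 1.01. Pkmyt1, a kinase that inhibits CDK1, rose by 1.10. Ccna1 and Ccnb1, the cyclins of meiotic and mitotic division, were at 0.03 (SE 0.16) and -0.24 (SE 0.16) and were not called.

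Of 48 tested genes of meiotic prophase 4 were higher and 4 lower (8.33% each, median -0.07), which is near the 7.74% and 8.68% of all genes. The higher count was 2 without WT MII replicate 3 or WT RS replicate 1, and the lower count was 2 without WT RS replicate 1 or WT RS replicate 2 and 7 without WT RS replicate 3. Sycp3, of the synaptonemal complex axis, was at 78.9, 63.6 and 130 CPM in MII and 26.55, 22.98 and 40.15 CPM in RS. Its log2 fold change was -1.60 (SE 0.25, adjusted p = 0.00036), and Hormad1, which marks unsynapsed axes, fell by 1.27. Rec8, the meiotic cohesin subunit, went the other way, from 56.7, 62.7 and 47.3 CPM to 119, 123 and 97.5 CPM (1.03, SE 0.15, adjusted p = 0.00028). Sun1, which ties telomeres to the nuclear envelope, rose by 0.67. Rec8 and Sycp3 thus differed in direction among axis genes, and neither pair of groups overlapped.

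Of 30 genes of the flagellum's accessory structures, that is the fibrous sheath, outer dense fibres and midpiece, 14 were higher (46.7%) and 0 lower, against 7.74% higher among all genes, and the median was 0.43. The count was 5 without WT RS replicate 2, 8 without WT RS replicate 1, 7 in the fit of the 6 WT libraries, and 19 without WT RS replicate 3. Tcp11, a sperm flagellum protein, was at 747, 935 and 557 CPM in MII and 1256, 1430 and 1369 CPM in RS (0.86, SE 0.16, adjusted p = 0.0016). Tsks, a substrate of the testis-specific serine kinases, was at 91.2, 106 and 87.3 CPM and then 192, 254 and 155 CPM (1.08, SE 0.19, adjusted p = 0.00098). Akap3, an anchoring protein of the fibrous sheath, was at 169, 152 and 171 CPM and then 303, 366 and 273 CPM (0.94, SE 0.16, adjusted p = 0.00095). None of these 3 overlapped between the stages, and WT RS replicate 2 was the highest library for each. Odf2 of the outer dense fibres rose by 0.49 and Spata20 by 0.83.

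The axoneme list had 14 higher (15.6%) and 4 lower (4.44%) of 90 (median 0.14), and 8 to 22 higher with 1 WT library left out (8 without WT MII replicate 3, 9 without WT RS replicate 1, 22 without WT MII replicate 2). With only the 6 WT libraries it had 5 higher and 1 lower, and the lower count was also 1 without WT MII replicate 3, WT RS replicate 1 or WT RS replicate 2. Dnah3, a dynein heavy chain, rose by 0.64 and Ttc21a, of retrograde intraflagellar transport, by 0.83, whereas Ift20, which links the Golgi to that transport, fell by 0.88. Of 62 acrosome genes 6 were higher (9.68%) and 3 lower (4.84%; median 0.08), near or under the 7.74% and 8.68% of all genes. The lower count was 0 without WT MII replicate 3 or WT RS replicate 1 and 1 without WT RS replicate 2. Dcst2, a sperm protein needed for fertilization, was at 18.86, 21.05 and 16.73 CPM in MII and 55.0, 61.7 and 51.9 CPM in RS (1.58, SE 0.17, adjusted p = 1.3e-05), and its partner Dcst1 rose by 0.90. Of 23 genes of the CatSper channel and sperm ion transport, 5 were higher (21.7%; 3 members without WT RS replicate 2) and 3 lower (13.04%). Among them Catsper4 rose by 0.57 and Slc2a3, a glucose transporter, fell by 0.80.

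**Figure D3:**
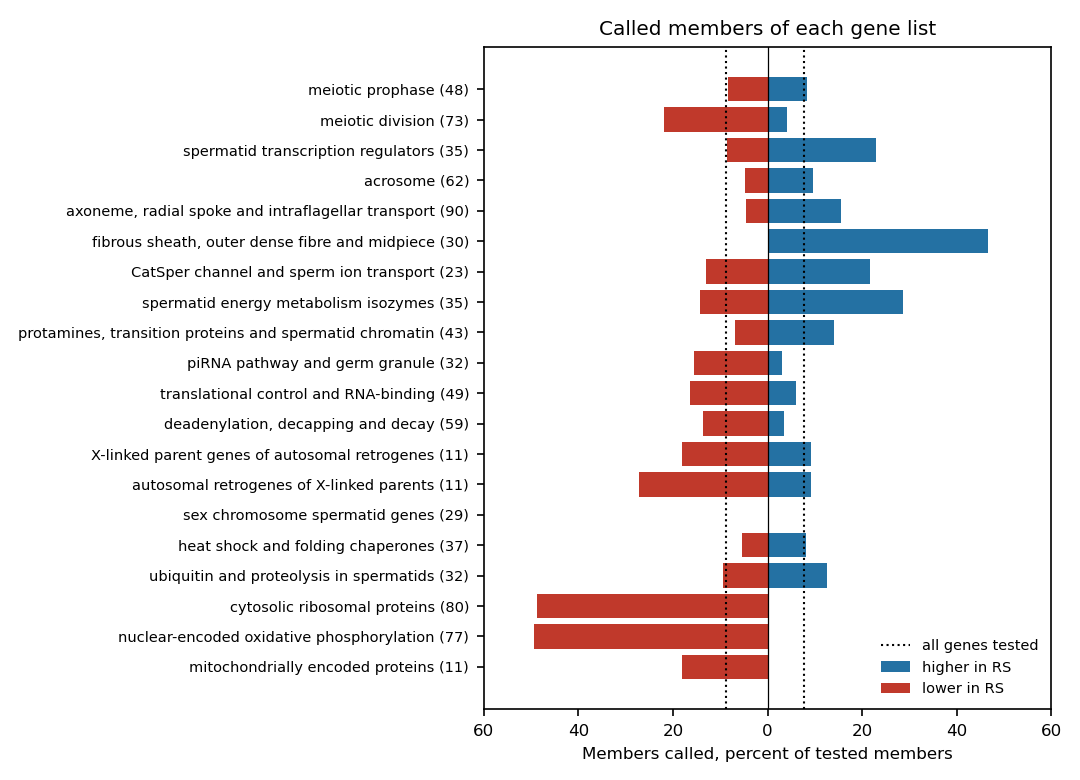
Percent of tested members called lower (left) and higher (right) in RS for 20 gene lists, with the number tested in parentheses and dotted lines at 8.68% and 7.74%, the shares among all genes. Ribosomal protein and oxidative phosphorylation lists reach farthest to the left, and the fibrous sheath, outer dense fibre and midpiece list farthest to the right.

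Transcription regulators of spermatids rose in 8 of 35 cases (22.9%) and fell in 3 (8.57%; median 0.12), where 7.74% and 8.68% of all genes did. They rose in 5 cases without WT RS replicate 1 and in 4 with only the 6 WT libraries, and fell in 5 without WT RS replicate 3. Rfx1, of the RFX family, was at 40.5, 46.7 and 34.3 CPM in MII and 94.8, 90.9 and 88.2 CPM in RS (1.17, SE 0.16, adjusted p = 0.00016). Rfx3 rose by 0.70 and Rfx4 by 0.58. Kif17, the kinesin that carries the CREM coactivator FHL5 in spermatids, rose by 0.68 (adjusted p = 0.0052), and was not called once the GC trend described below was taken out (adjusted p = 0.054). Gmcl1, a nuclear envelope protein, went from 130, 135 and 133 CPM to 41.0, 40.2 and 63.3 CPM (-1.47, SE 0.17, adjusted p = 1.7e-05). Crem itself was not called (563, 487 and 721 CPM in MII and 585, 580 and 544 CPM in RS). Of 43 genes of protamines, transition proteins and spermatid chromatin 6 were higher (13.95%) and 3 lower (6.98%). The higher count was 2 without WT RS replicate 2 and 3 without WT MII replicate 1, WT MII replicate 3 or WT RS replicate 1. Prm2, a protamine, rose by 0.67 and lost its call without WT MII replicate 1, WT MII replicate 2 or WT RS replicate 2, and with the GC trend taken out (0.47, adjusted p = 0.097, edgeR). Prm1 was at 0.27 (SE 0.24), Tnp1 at -0.07 (SE 0.22) and Tnp2 at 0.33 (SE 0.22), none of them called. Nutm1, a chromatin factor of spermatids, rose by 0.92. Rnf8, a ubiquitin ligase of histones, fell by 1.44 and Sirt1, a deacetylase, by 1.04.

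Energy metabolism genes of spermatids were higher in 10 (28.6%) and lower in 5 (14.3%) of 35 cases, where 7.74% of all genes were higher and 8.68% lower. With only the 6 WT libraries 6 were higher and 3 lower, and the lower count was 2 without WT RS replicate 1 or WT RS replicate 2 and 3 without WT MII replicate 3. Hk1, hexokinase, rose by 0.77 and the testis aldolases Aldoart2 and Aldoart1 by 0.82 and 0.66, while Cyct, testis cytochrome c, fell by 0.67. The ubiquitin list had 4 higher (12.5%) and 3 lower (9.38%) of 32, not far from the shares of all genes. Its lower count was 1 without WT MII replicate 3, WT RS replicate 1 or WT RS replicate 2. Klhl10, an adaptor of a CUL3 ligase in spermatids, was at 331, 329 and 318 CPM in MII and 580, 620 and 464 CPM in RS (0.77, SE 0.13, adjusted p = 0.00095). Psma8, the subunit of the spermatoproteasome, fell by 0.91. Hsf1, the heat shock factor, rose by 1.24 from 13.3, 18.1 and 12.1 CPM to 34.7, 29.2 and 38.9 CPM, and heat shock and folding chaperones had 3 higher (8.11%) and 2 lower (5.41%) of 37, shares near or under those of all genes. Without 1 WT library they had 1 to 5 higher (1 without WT MII replicate 3 or WT RS replicate 2, 5 without WT MII replicate 2) and 0 to 4 lower (0 without WT RS replicate 1, 4 without WT MII replicate 1).

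Among lists of RNA regulation, the translational control and RNA-binding list had 8 lower (16.3%) and 3 higher (6.12%) of 49 (median -0.16), the piRNA list 5 lower (15.6%) and 1 higher (3.13%) of 32 (median -0.16), and the deadenylation, decapping and decay list 8 lower (13.6%) and 2 higher (3.39%) of 59 (median -0.06), where 8.68% of all genes were lower and 7.74% higher. These counts moved with single libraries. The translational control list had 1 lower and 3 higher without WT RS replicate 1, 5 and 5 without WT MII replicate 2, 4 and 3 without WT MII replicate 3, 5 lower without WT MII replicate 1 or WT RS replicate 2, and 3 and 3 with only the 6 WT libraries. The lower piRNA count was 2 without WT RS replicate 1 or WT RS replicate 2 and with only the 6 WT libraries and 3 without WT MII replicate 3, and 3 were higher without WT MII replicate 2. The lower decay count was 4 without WT MII replicate 3, WT RS replicate 1 or WT RS replicate 2, and 5 were higher without WT MII replicate 2. Lsm3, of the LSM ring that binds mRNA ends and of the spliceosome, was at 24.0, 26.1 and 46.4 CPM in MII and 5.89, 4.50 and 9.95 CPM in RS (-2.26, SE 0.28, adjusted p = 4.2e-05). Ddx6, a helicase of decapping, was at 9.08, 8.54 and 8.47 CPM and then 3.35, 3.04 and 3.44 CPM (-1.41, SE 0.21). Lsm6 fell by 1.61. Piwil1, a Piwi protein of pachytene piRNAs, fell by 0.98, and Rbm46, an RNA-binding protein of meiosis, by 1.05, whereas the initiation factor Eif4g1 rose by 1.03 and the splicing regulator Ptbp1 by 1.22. Pan2 was at 12.9, 17.1 and 13.3 CPM in MII and 9.93, 8.13 and 12.9 CPM in RS and Pan3, its partner, between 70.6 and 138 CPM in the 6 libraries. Neither was called.

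Ribosomal protein genes were lower in 39 of 80 cases and higher in 0 (median -0.39, also with Rpl39, at 0 counts in RS, set to its bound), and nuclear genes of oxidative phosphorylation in 38 of 77 and 0 (median -0.46), where 8.68% of all genes were lower. Rps27a, a small-subunit protein made as a ubiquitin fusion, was at 155, 169 and 186 CPM in MII and 76.2, 57.8 and 87.9 CPM in RS (-1.20, SE 0.16, adjusted p = 7.3e-05). Rpl14, whose promoter is printed above, was at 24.2, 31.6 and 29.9 CPM and then 9.73, 8.16 and 13.9 CPM (-1.43, SE 0.22). Ndufc2, of complex I, was at 38.7, 34.5 and 44.7 CPM and then 13.2, 11.9 and 16.2 CPM (-1.52, SE 0.18, adjusted p = 2.6e-05). All MII libraries were above all RS libraries for these 3 genes. Both counts moved with single libraries. The ribosomal count was 9 without WT RS replicate 1, 18 without WT RS replicate 2, 26 without WT MII replicate 3 and 15 in the 6-library fit, and the oxidative phosphorylation count 7, 20, 11 and 15 in the same fits. Without WT MII replicate 2, 43 oxidative phosphorylation genes were lower and 5 higher. The summed CPM of the oxidative phosphorylation genes was 13457, 13272 and 18484 in MII and 11298, 11478 and 12441 in RS, with WT MII replicate 3 the highest. That library was also the one in which the shortest of 4 equal groups of protein-coding genes lay 0.22 (log2) above the 6-library mean. Ribosomal protein genes have many processed pseudogenes, so their counts are uncertain. The somatic sums given above moved the same way as these genes. Of 11 mitochondrially encoded genes, 2 were lower (mt-Nd1 and mt-Nd2), and 0 without WT MII replicate 1, WT MII replicate 2, WT RS replicate 1 or WT RS replicate 2.

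**Figure D4:**
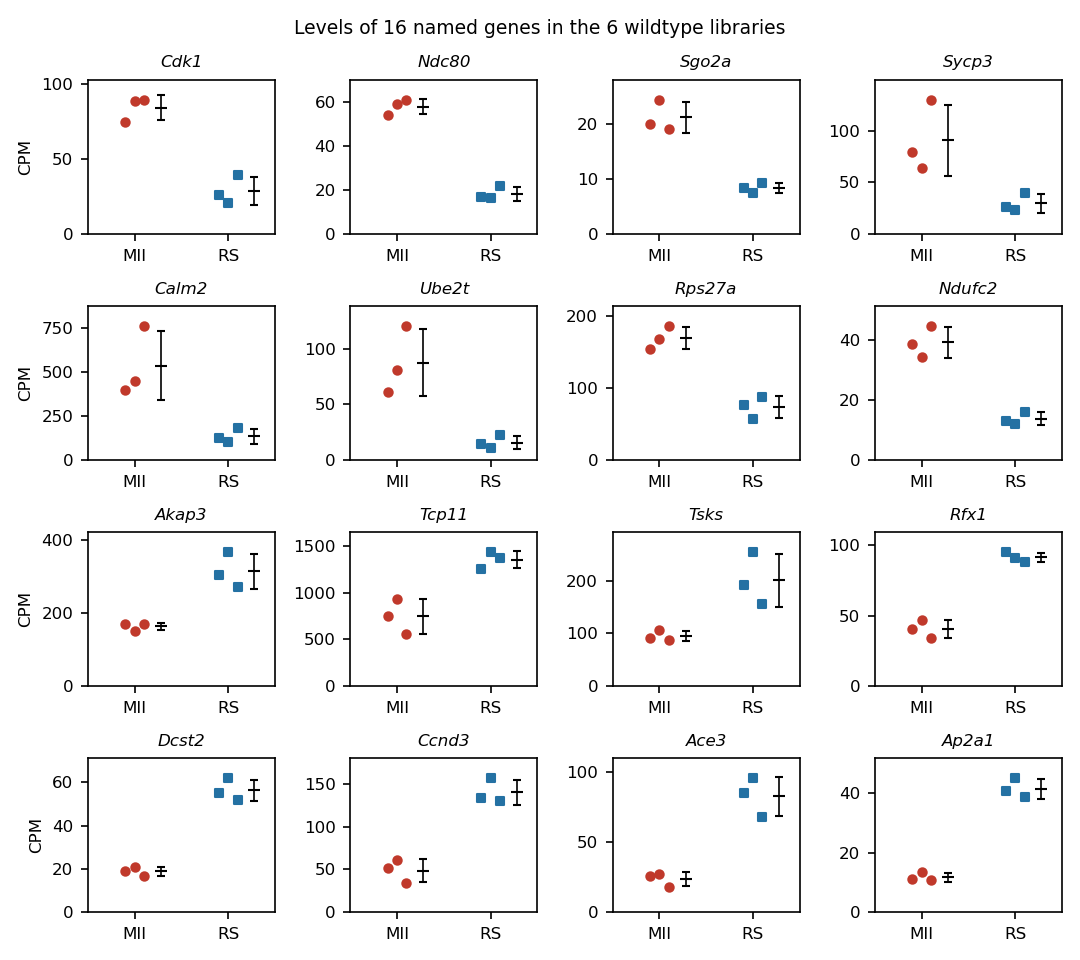
CPM of 16 genes in the 6 WT libraries (circles MII, squares RS), each axis starting at 0, with the mean and SD (n = 3) as bar and whiskers. The first 8 genes were lower in RS and the last 8 higher, and the groups do not overlap in any panel.

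By size of change, the largest rises among genes at 20 CPM or more were Ap2a1, Ace3, Tcte1 and Dcst2. Ap2a1, a subunit of the clathrin adaptor AP-2, was at 11.1, 13.5 and 10.8 CPM in MII and 40.6, 44.8 and 38.5 CPM in RS (1.81, SE 0.19, adjusted p = 9.8e-06). Ace3, an angiotensin-converting enzyme homologue, went from 26.0, 27.2 and 18.4 CPM to 84.8, 95.4 and 68.0 CPM (1.80, SE 0.22). Ccnd3, a D-type cyclin, went from 51.6, 60.9 and 33.9 CPM to 133, 156 and 130 CPM (1.52, SE 0.20, adjusted p = 6.1e-05). All 3 held without any 1 library. Naa80, the actin N-acetyltransferase, rose by 1.51. Tcte1, of the axonemal dynein regulatory complex, was at 32.0, 47.8 and 9.22 CPM in MII and 88.3, 80.9 and 115 CPM in RS, and lost its call without MII replicate 1 of WT or KO or any 1 RS library of WT.

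The largest falls at that level were Dcn, Gstm1, Rbbp7 and Ube2t. Dcn, decorin, is on the stromal list, and was at 49.2, 31.8 and 54.4 CPM in MII and 0.172, 2.11 and 0.374 CPM in RS. Gstm1, a glutathione transferase, went from 73.5, 56.2 and 76.2 CPM to 1.95, 2.29 and 1.80 CPM. Rbbp7, a histone-binding chaperone encoded on the X, went from 61.5, 22.1 and 39.7 CPM to 2.46, 2.23 and 2.62 CPM (-4.07, SE 0.57, adjusted p = 0.001). Ube2t, a ubiquitin-conjugating enzyme of DNA repair, went from 61.3, 80.9 and 120 CPM to 14.1, 10.8 and 22.6 CPM (-2.47, SE 0.27, adjusted p = 1.3e-05). Its groups did not overlap. Among abundant genes Calm2, a calmodulin, was at 399, 451 and 763 CPM in MII and 123, 102 and 183 CPM in RS (-1.98, SE 0.23). Gmnn, geminin, which blocks replication licensing, fell by 1.60 and Mphosph8, a reader of methylated H3, by 1.86.

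The X chromosome had few falls at appreciable levels. Where the mean level was 5 CPM or more, 35 of 277 X genes were higher (12.6%) and 3 lower (1.08%), against 13.1% and 11.2% of 10255 autosomal genes. The 3 that fell were Rbbp7, Rpl10, a ribosomal protein with the autosomal retrogene Rpl10l, and Ndufa1, of complex I. Without WT MII replicate 2 the lower count was 16. Rpl10 was at 9.50, 7.92 and 6.99 CPM in MII and 1.95, 2.85 and 2.17 CPM in RS (-1.80, SE 0.26), while Rpl10l was at -0.21 (SE 0.12) and not called. Rps4x, also on the X, had 66, 78 and 140 counts in MII and 0, 2 and 0 in RS, and Rpl36a 70, 66 and 67 counts against 4, 0 and 2. Below a mean of 1 CPM, 45 of 293 X genes were lower (15.4%) and 4 higher (1.37%), against 5.63% and 0.895% of 5029 autosomal genes. Of 29 tested spermatid genes of the sex chromosomes 0 were called (median 0.21), where 7.74% of all genes were higher and 8.68% lower. This moved with single libraries and the method. Without WT MII replicate 3 or with limma-voom 2 were higher, and without WT MII replicate 2 there were 3 lower. Nearest to a call in the main fit were Akap4 on the X (0.43, SE 0.15, adjusted p = 0.052) and Uba1y on the Y (adjusted p = 0.054).

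Of 3718 long noncoding RNAs tested, 253 fell (6.80%) and 74 rose (1.99%), both below the 8.68% and 7.74% of all genes. Genes of any type below a mean of 1 CPM were skewed the same way, with 328 lower and 49 higher. Gm11981 rose by 1.31 and 4930571K23Rik by 0.84, and 1700012C14Rik fell by 1.18 and D6Ertd474e by 1.11. Of 115 transcripts from bidirectional promoters 17 were lower (14.8%) and 1 higher. Antisense transcripts cannot be told from their partner genes where counting did not use strand, and the labels do not state the strand setting.

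GC content of the transcript went with the direction of change. Protein-coding genes were put in 4 groups of equal size by GC. In the group of highest GC, 674 of 3682 were higher and 227 lower, and in the lowest 175 and 418. Higher genes had a median GC of 53.3% and lower genes 47.5%, against 49.1% for all. WT MII replicates 1 and 3 lay 0.213 and 0.194 (log2) below the 6-library mean in the highest group and the RS libraries 0.0911 to 0.166 above it, but WT MII replicate 2 lay 0.0929 above it, like RS. With the trend taken out, a setting chosen after seeing the data, 3573 genes were called, 1730 higher and 1843 lower. Of the 3497 genes, 3026 were called there too. The meiotic division (16 lower), ribosomal (40 lower), oxidative phosphorylation (40 lower) and sheath (15 higher) counts were close to those above.

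**Figure D5:**
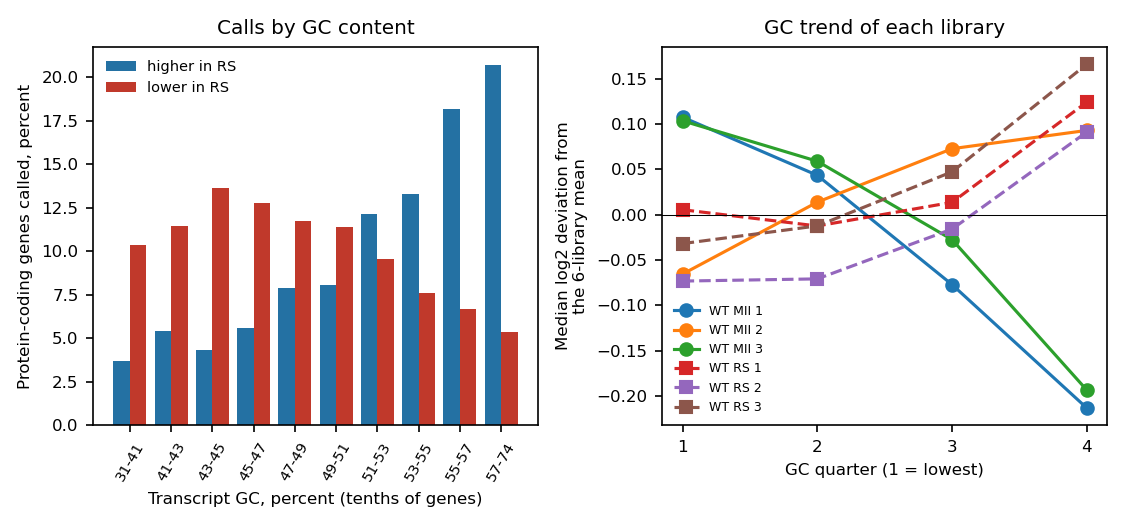
Left, percent of protein-coding genes called higher and lower in RS in 10 equal groups by transcript GC. Right, median log2 deviation of each WT library from the 6-library mean in 4 groups by GC; WT MII replicate 2 rises with GC like the RS libraries while the other 2 MII libraries fall.

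Promoter letters were counted on both strands in the 13945 tested genes with a RefSeq promoter. The X-box letters GTTGCC were in 19.6% of promoters of genes that rose, 10.5% of those that fell and 14.3% of all. The full cAMP response element TGACGTCA was in 3.83%, 2.93% and 2.88%, its shorter core TGACG in 30.8%, 28.7% and 27.4%, and the MYB letters TAACNG in 20.6%, 21.4% and 21.3%. The core is part of the full element, so these counts overlap. A pyrimidine run of at least 8 bases over the start was in 15 of 59 ribosomal protein promoters (25.4%) and in 3.74% of all. In the same 59 promoters the full element was in 6 (10.2%) and its core in 31 (52.5%). The X-box letters were in 4 (6.78%) and the MYB letters in 7 (11.9%). Of the 80 tested ribosomal protein genes, 39 were lower in RS and 0 higher. Median promoter GC was 59.7% for genes that rose, 59.3% for those that fell and 58% for all.

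The stage change was compared with that in KO, whose libraries share no sample with WT. Pan2 was at 5.57, 7.10 and 5.07 CPM in KO MII, below every WT MII library. The libraries labelled KO RS had 22.6, 4.73 and 3.52 CPM, so replicate 1 went against its label. In KO 2625 genes were called (12.3%), 885 higher (4.16%) and 1740 lower (8.17%), and 1096 to 1824 with 1 KO library left out (1680 without the library labelled KO RS replicate 1). Of the 3497 WT genes, 3411 had the same sign in KO (97.5%), and 3410 without that library. The share with the same sign was not counted over all genes tested, so 97.5% cannot be read as particular to the called genes. Genes called in both with the same sign numbered 1555, which is 44.5% of the WT calls and 59.2% of the KO calls, and 0 were called with opposite signs. Meiotic division genes were lower in 29 of 73 cases in KO (median -0.57), and in 22 without the library labelled KO RS replicate 1. Ribosomal protein genes were lower in 15 of 80 cases in KO and oxidative phosphorylation genes in 9 of 77. A test of the difference between the stage changes called 1 gene, Acta2 (0.0047% of genes, edgeR quasi-likelihood), with 1405 at an unadjusted p under 0.05, and 19 by DESeq2, so these list counts are not shown to differ between genotypes.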

How the data were processed

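The deposited values are raw counts for 55291 gene symbols in 12 libraries. The submitters' processing notes name featureCounts 2.0.2, STAR 2.7.10a and Trim Galore 0.6.7, with DESeq2, and the mm10 build. The strand setting and the handling of reads with several positions, which bear on paralogs, pseudogenes and overlapping genes, are not given in the sources used. Gene type and GC came from GENCODE M21, which held 53292 of the symbols.

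Of 37839 genes with a count, 21291 passed filterByExpr (minimum count 10, total 15). They were tested with edgeR 4.0.16 (TMM scaling, robust quasi-likelihood F test, 4 group means fitted to all 12 libraries, 8 residual degrees of freedom) for RS minus MII in WT and in KO and for the difference, with Benjamini-Hochberg adjustment over all genes tested and calls at an adjusted p under 0.05. The square root of edgeR's common dispersion was 22.3%, which may include technical variation. The SE is the log2 fold change divided by the square root of F. Lists were described by counts and medians without a test.

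Genes named were the 12 largest rises and falls and the 8 largest gains and losses in CPM among called genes at 20 CPM or more with no overlap, up to 4 called members per list with the smallest adjusted p (2 where none was called), Pan2, Pan3, and 4 noncoding RNAs each way; symbols of predicted genes were left out of the first groups. Other members and families were named after their values were seen. Members, lists and tests were chosen with earlier results of these data known. Alternatives were DESeq2 1.42.0, its size factors, total-count scaling, limma-voom 3.58.1, other filters, only the 6 WT libraries, the replicate number as a block, no mitochondrial or top 10 genes, a fold change of at least 2, each library left out, and a GC correction chosen after seeing the data. The floors cover counting error only, whereas the SE also holds variation among libraries.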

Additional observations from a re-analysis of the deposited data

Results flagged for a closer look

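Acta2, smooth muscle actin and a marker of peritubular myoid cells, was the gene whose stage change differed between genotypes in the test of the difference across all genes. It was at 51.3, 22.6 and 24.7 CPM in WT MII and 3.40, 3.32 and 2.54 CPM in WT RS, a log2 fold change of -3.40 (SE 0.33). In KO MII it was at 9.88, 5.19 and 5.25 CPM and in the libraries labelled KO RS at 6.66, 5.01 and 4.07 CPM, a change of -0.36 (SE 0.31). The stage change in KO minus that in WT was 3.04 (SE 0.44, adjusted p = 0.0269, edgeR quasi-likelihood test), and the WT MII libraries were the high ones. With 1 library left out the adjusted p ran from 0.0045 to 0.215, and it was 0.0493 without the library labelled KO RS replicate 1. The part of myoid cells in it was not tested; their marker sum in WT was 118 to 204 CPM in MII and 23.7 to 28.5 CPM in RS. Of the 16 tested markers of myoid, endothelial and stromal cells, Acta2 included, 12 were lower in WT (median -3.40) and 6 in KO (median -0.99). Only 1 of them, Acta2, was called for the difference. Of 16 Leydig markers 10 were lower in each genotype (medians -3.11 in WT and -3.02 in KO).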

How the results depend on the processing

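The count of 3497 genes changed between the stages was within 1.5 times of itself under DESeq2's size factors, total-count scaling, limma-voom, DESeq2 (4258), a 5 CPM filter, no filter at all (3780), the GC correction, the replicate block (3341) and the fit without mitochondrial and top 10 genes. Without the filter 2003 were higher and 1777 lower. It was 2108 with only the 6 WT libraries and 1312 at a fold change of at least 2. With 1 library left out it ran from 1776 to 3980, and the cause was not tested. The count of genes whose stage change differed between KO and WT was 1, against 65 with no filter, 0 at 5 CPM in 3 libraries, 19 with DESeq2, 0 with limma-voom and 3 with the replicate block, and 0 to 2 with 1 library left out. No called result changed sign under the alternatives run. Of 138 named genes, 132 of them called, 9 lost their call with the GC correction, 16 with only the 6 WT libraries and 3 with the replicate block, and leaving out each of the 12 libraries in turn ended a call in 100 fits of single genes. Residuals of same-numbered MII and RS libraries correlated at 0.038, -0.203 and -0.088, and those of differently numbered libraries at -0.103 to 0.195. Residuals centred within groups of 3 libraries cannot decide whether same-numbered libraries came from 1 animal.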

Other observations

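In a scan of 176 gene families with at least 10 tested members, chosen after seeing the data and with no test of a family, the tubulin tyrosine ligase-like enzymes stood among those with the most calls. These enzymes add glutamate or glycine to tubulins, and axonemes carry many such marks. Of 13 tested, 8 were higher in RS and 0 lower (median 0.46), where 7.74% of all genes were higher and 8.68% lower, and the same counts held with the GC trend taken out. Ttll3 was at 39.3, 52.4 and 26.2 CPM in MII and 92.0, 97.4 and 78.4 CPM in RS (log2 fold change 1.19, SE 0.20). Ttll10 was at 158, 166 and 104 CPM and then 284, 367 and 248 CPM (1.07, SE 0.18). Ttll8 rose by 1.06, Ttll13 by 0.66 and Ttll9 by 0.60, while Ttll1 (-0.05, SE 0.15) and Ttll2 (0.31, SE 0.24) were not called.

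Against the same shares of all genes, the A-kinase anchoring proteins had 5 of 13 higher and 0 lower and the Mroh family 4 of 10 and 0. Import receptors and translocases of mitochondria went the other way, with 4 of 10 Tomm genes and 5 of 15 Timm genes lower and 1 higher in each. Splicing factors of the Srsf family were lower in 4 of 11 cases and higher in 0. These families overlap with the gene lists in part, and their members share no test here.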
